A study of Homo sapiens with 7 samples.

Results

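The chromatin positions of the elongation factor SPT5 and of RNA polymerase II (Pol II) were compared in BJAB, a human B-cell line that the labels trace to Burkitt's lymphoma. These are 2 of the 7 ChIP-seq libraries of the series and 2 of its 5 peak lists. ChIP-seq recovers and sequences the DNA that is crosslinked to a protein, and a peak is a stretch with more reads than a background. The Pol II library was made with the antibody 8WG16 from Covance and the SPT5 library with an antibody from Santa Cruz, both from cells fixed in 1% formaldehyde for 5 min, with cells of multiple passages and no treatment named. The comparison was limited to chromosomes 1 to 22, which held 19336 of the 19908 Pol II peaks and 54885 of the 56104 SPT5 peaks. It started from each Pol II peak and the SPT5 peaks that overlapped it by 1 bp or more. Each target had 1 library, so there is no replicate check and no test between libraries. Intervals are 95% intervals, cover counting error only, and treat neighbouring peaks as separate observations. Peak height is the fold enrichment that the authors deposited for each peak, and it was used only for description and ranking within a list.

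Pol II transcribes protein-coding genes, and 8WG16 recognises the repeats in the tail of its largest subunit. SPT5 forms the DSIF complex with SPT4. DSIF binds Pol II soon after initiation and, together with NELF, holds it in the promoter-proximal pause. When the kinase P-TEFb phosphorylates SPT5 and the polymerase, NELF leaves and SPT5 travels on with the elongating enzyme. SPT5 is therefore known both at paused promoters and along active genes.

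SPT5 covered nearly all Pol II sites, while most SPT5 peaks lay outside Pol II peaks. An SPT5 peak overlapped 18462 of the 19336 Pol II peaks (95.5%, Wilson interval 95.2% to 95.8%). In the other direction, a Pol II peak overlapped 15848 of the 54885 SPT5 peaks (28.9%, 28.5% to 29.3%). By length, 95.1% of the 11.7 Mb of Pol II peaks lay inside SPT5 peaks, and 30.3% of the 36.8 Mb of SPT5 peaks lay inside Pol II peaks. The list shortened to the 19336 most significant SPT5 peaks still overlapped 86.5% of Pol II peaks, and 72.5% of those SPT5 peaks then carried Pol II. These were ranked by the deposited p column, with fold enrichment used only for ties. The read depth of both libraries is unknown, and the part of depth in the length of the lists was not tested.

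The Pol II peaks that lacked SPT5 were few, low and narrow. They numbered 874, with a median fold enrichment of 3.47 and a median width of 269 bp, against 5.02 and 526 bp for the Pol II peaks with SPT5. The share with SPT5 was 93.3% in the lowest decile of Pol II height, 90.8% in the second decile and 99.6% in the highest, where 1927 of 1934 peaks carried SPT5. The nearest SPT5 summit lay a median of 9004 bp from the Pol II summits without SPT5 (7283 to 11603 bp). For 227 of these 874 peaks (26.0%) an SPT5 peak ended within 1 kb of the Pol II peak.

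The pairing was mostly simple from the Pol II side and often shared from the SPT5 side. Of the 18462 paired Pol II peaks, 18294 (99.1%) overlapped 1 SPT5 peak, 163 overlapped 2 and 5 overlapped 3 or 4. For each, the SPT5 peak with the most shared bases was taken as the partner. Of the 15848 SPT5 peaks with Pol II, 13683 (86.3%) held 1 Pol II peak, 1767 held 2, 280 held 3 and 118 held 4 or more. Together 2165 (13.7%) held 2 or more, and 5.88% did after peaks within 500 bp were merged in both lists. As a result 4930 Pol II peaks (26.7% of those paired) shared their SPT5 partner with another Pol II peak. The 13388 pairs in which each peak overlapped only the other are called simple pairs below.

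SPT5 partners were wider than the Pol II peaks they overlapped, although over the whole lists SPT5 peaks were the narrower. All SPT5 peaks had a median width of 413 bp and all Pol II peaks of 506 bp. Partners are chosen by overlap, which a wide peak meets more easily, and their height had a median at the 86.0 percentile of the SPT5 list. Within pairs the median width was 526 bp for the paired Pol II peaks (quartiles 344 and 758 bp) and 961.5 bp for their SPT5 partners (633 and 1604 bp). The SPT5 partner was the wider in 16700 of 18462 pairs (90.5%) and at least 2 times as wide in 7075 (38.3%). The median width ratio of SPT5 to Pol II was 1.60 (1.58 to 1.62, quartiles 1.17 and 2.79). It ranged from 0.139 to 111, and 778 pairs (4.21%) had a ratio of 10 or more. Much of the upper range came from shared partners. In simple pairs the median ratio was 1.34 (1.33 to 1.35), and 19.9% of them reached 2, against the 38.3% of all pairs. Where the partner held 2 or more Pol II peaks, the median ratio was 3.86, and the SPT5 peak had a median width of 2013.5 bp over Pol II peaks of 449 bp. Such a partner must span the gap between its Pol II peaks, so part of this contrast is built in.

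The width ratio fell as Pol II peaks became higher. In the lowest decile of Pol II fold enrichment (median 2.46) Pol II peaks had a median width of 297 bp and their SPT5 partners 989 bp, with a median ratio of 3.10 (2.92 to 3.24). In the highest decile (median fold enrichment 11.6) the widths were 767 and 1028 bp and the ratio was 1.26 (1.24 to 1.29). The Pol II width thus differed more than 2-fold between these deciles, while the median SPT5 width over all pairs stayed between 822.5 and 1067 bp in all 10 deciles. Shared partners, which are wide, made up 41.4% of pairs in the lowest decile and 16.5% in the highest. In simple pairs the ratio went the same way, from 1.85 to 1.20, so that the gradient was shallower without shared partners. Pol II and SPT5 widths had a Spearman rho of 0.67 in simple pairs and 0.41 over all pairs. Over all pairs the median SPT5 width went from 659 bp at the narrowest decile of Pol II width to 1952 bp at the widest. The even SPT5 width thus refers to Pol II height over all pairs, and it was not examined in simple pairs. Among deciles of Pol II width the ratio went from 2.89 in the narrowest to 1.39 in the sixth, and it was 1.32 to 1.33 in the 4 widest. Pol II width is the denominator of this ratio, so sorting by it lowers the ratio by construction. Width and height were themselves related within the Pol II list (Spearman rho 0.61 over 18462 pairs, given as a description), and each decile of one is therefore partly a decile of the other.

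**Figure D1:**
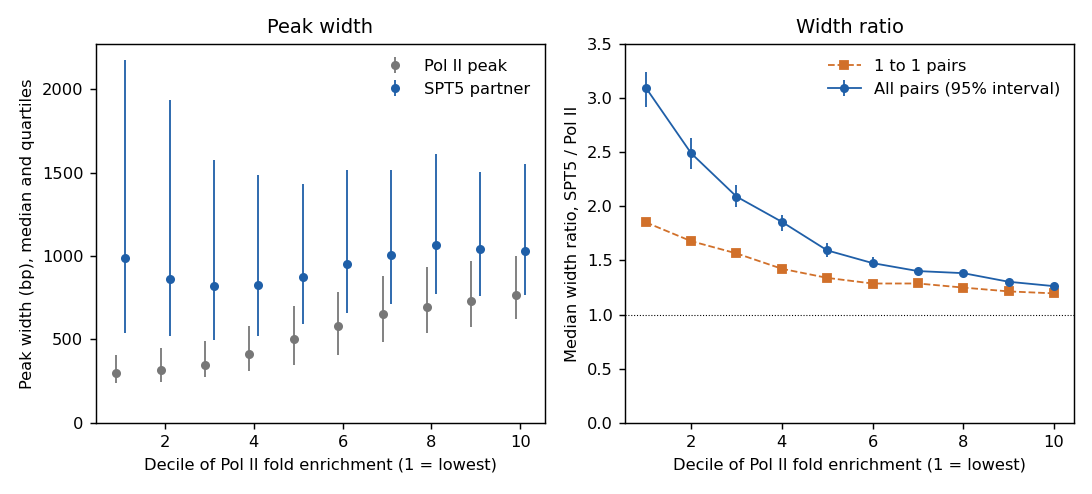
Left, median width in bp of Pol II peaks and of their SPT5 partners by decile of Pol II fold enrichment, with bars to the quartiles. Right, the median width ratio with its 95% interval for all 18462 pairs, and for the 13388 simple pairs (labelled 1 to 1); the ratio falls from 3.10 to 1.26 in all pairs and from 1.85 to 1.20 in simple pairs.

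At most sites SPT5 passed both ends of the Pol II peak. It did so in 13505 pairs (73.2%), passed 1 end only in 4219 (22.9%), and lay wholly within the Pol II peak in 738 (4.00%). The files give no strand, so sides are known only as the low- and high-coordinate side. SPT5 reached a median of 111 bp past the low end (107 to 115 bp) and 109 bp past the high end (105 to 112 bp). The longer of the 2 extensions lay on the low side in 50.5% of pairs (49.8% to 51.2%). At single sites the extensions were unequal, with a median of 263 bp at the longer and 43 bp at the shorter end. An extension over 1 kb was present at 1 end or both in 3304 pairs (17.9%), and at both ends in 677 (3.67%). In simple pairs the extensions were shorter, with a median of 150 bp at the longer and 28 bp at the shorter end, and 3.79% of them had an extension over 1 kb.

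**Figure D2:**
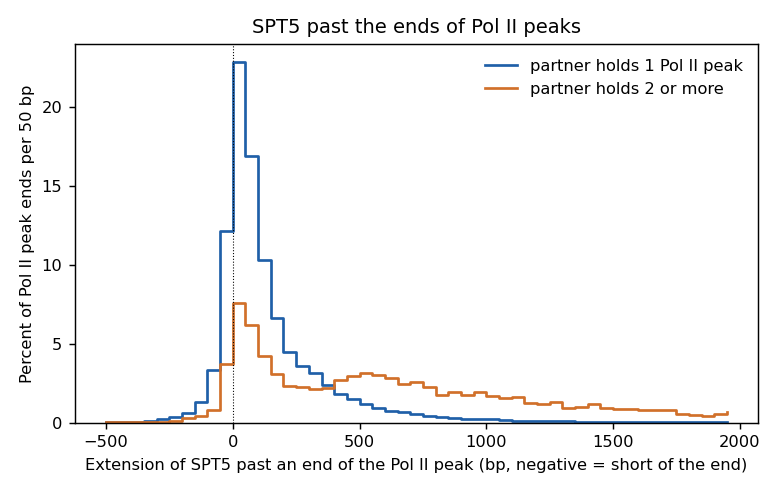
Percent of Pol II peak ends per 50 bp of extension of the SPT5 partner past that end, both ends pooled, for partners that hold 1 Pol II peak and for those that hold 2 or more. Ends under partners with 1 Pol II peak gather close to 0, while those under partners with 2 or more are spread out past 1 kb; ends with an extension outside the axis are not drawn.

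The spread to either side was also measured from the Pol II summit, the position of highest signal, as the arm to each end of the SPT5 peak. The SPT5 partner contained the Pol II summit in 18308 pairs (99.2%). The longer arm had a median of 634 bp and the shorter arm 298 bp, and the median ratio of the longer to the shorter arm was 1.91 (1.90 to 1.94). The arms of Pol II peaks around the same summits had a median ratio of 1.64. An arm ratio of 3 or more was found at 4482 SPT5 partners (24.5%), and a ratio under 1.5 at 5820 (31.8%). The longer SPT5 arm lay on the side of the longer Pol II arm in 11893 of 18221 pairs (65.3%, 64.6% to 66.0%). In simple pairs this share was 72.0%. It was 86.5% in simple pairs whose Pol II arms differed by 2 times or more, and 58.8% in those whose Pol II arms differed by less than 1.5 times. Both sets of arms start from the same Pol II summit, and in simple pairs SPT5 ends lay close to Pol II ends, so an unequal Pol II peak puts the longer SPT5 arm on its own longer side by construction. These shares therefore describe the shape of the pairs and say nothing of a lean of SPT5 beyond that of Pol II.

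The most one-sided SPT5 domains wider than 5 kb were chosen by arm ratio, so a Pol II summit near 1 edge is built in. That summit lay within 144 bp of the edge, and its Pol II peak was low. At chromosome 5, 140886916 to 140896231, the SPT5 peak of 9316 bp reached 9312 bp to the low side of a Pol II summit and 3 bp to its high side, in a domain with 5 Pol II peaks. At chromosome 9, 139971487 to 139980625, the arms were 9023 bp and 115 bp, and the domain held 4 Pol II peaks. At chromosome 5, 156691346 to 156697792, the arms were 104 bp on the low side and 6342 bp on the high side. At chromosome 16, 81964826 to 81970182, they were 5294 and 62 bp. In each of these 4 the Pol II peak at the edge was low in its list, between the 8th and the 22nd percentile, and the domain held 3 to 5 Pol II peaks.

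Where an SPT5 peak held 2 Pol II peaks, its summit lay mostly at the higher of them. In the 1767 SPT5 peaks with 2 Pol II peaks, the Pol II summits lay a median of 650 bp apart (632 to 669 bp), with a median gap of 166 bp between the Pol II peaks. The SPT5 summit lay inside 1 of the 2 Pol II peaks in 1712 of these (96.9%) and in the gap in 29 (1.64%). It was nearer the higher Pol II peak in 1407 (79.6%, 77.7% to 81.4%). Where the Pol II heights differed by 2 times or more, it was nearer the higher one in 533 of 541 (98.5%). Joining became rarer with the gap between neighbouring Pol II peaks: 1 SPT5 peak covered both in 91.9% of 682 neighbours with a gap under 100 bp, 60.5% of 1439 with 200 to under 500 bp, 34.4% of 765 with 500 to under 1000 bp, and 2.96% of 1184 with 2 to under 5 kb. No gap within either list was under 55 bp.

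The domains that held most Pol II peaks were long and carried no high Pol II peak. The SPT5 peak at chromosome 16, 81821193 to 81834912, spanned 13720 bp and overlapped 16 Pol II peaks with fold enrichments of 2.103 to 3.18. Its own fold enrichment was 3.34, the 51st percentile of the SPT5 list. The peak at chromosome 17, 3853442 to 3861963, overlapped 11 Pol II peaks (2.64 to 4.31) with an SPT5 fold enrichment of 4.98. The peak at chromosome 12, 25219239 to 25228071, overlapped 9 (3.03 to 5.34) with 10.8. The highest of these Pol II peaks stood at the 55th percentile of its list. In all 3 domains the Pol II peaks were thus spread over most of an SPT5 domain of over 8 kb.

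The largest width ratios also belonged to long domains over weak Pol II peaks. The 27057 bp SPT5 peak at chromosome 9, 130719708 to 130746764, the widest of the list, held 6 Pol II peaks, and gave the ratios of 111 and 103 at Pol II peaks of 243 bp (130745178 to 130745420, fold enrichment 2.90) and 262 bp (130740324 to 130740585, 3.31). The 20483 bp peak at chromosome 12, 113493302 to 113513784, held 7 Pol II peaks and gave ratios of 94.0 and 93.5. The 23653 bp peak at chromosome 1, 8916477 to 8940129, held 3 and gave a ratio of 89.9 at a Pol II peak of 263 bp. At the other end, a 1739 bp Pol II peak at chromosome 17, 45285212 to 45286950, overlapped an SPT5 peak of 241 bp, a ratio of 0.139. The next smallest ratios were 0.284 at chromosome 19, 41146109 to 41147006, and 0.303 at chromosome 17, 45771055 to 45771916.

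Summits of the 2 lists nearly coincided. The partner SPT5 summit lay a median of 32 bp from the Pol II summit (31 to 33 bp, quartiles 12 and 160 bp). It was within 10 bp in 22.8% of pairs, within 50 bp in 60.7% and within 250 bp in 79.0%, and it was over 1 kb away in 1102 pairs (5.97%). In simple pairs the median was 24 bp, 71.1% were within 50 bp, and 96.2% of SPT5 summits lay inside the Pol II peak. With a shared partner the median was 444.5 bp, since 1 SPT5 peak has 1 summit in these lists and can lie near only 1 of its Pol II peaks. The distance fell with Pol II height in simple pairs too, from a median of 49 bp in the lowest decile to 13 bp in the highest. Sonicated fragments are generally longer than these distances, so they describe where the reads pile up and not the position of either protein to the base pair.

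Further SPT5 peaks flanked most Pol II sites. A flanking peak was one whose summit lay within the stated distance of the Pol II summit and that did not overlap the Pol II peak itself. Within 1 kb, 18.3% of the 19336 Pol II summits had a flanking SPT5 peak, within 5 kb 56.8%, within 10 kb 68% and within 20 kb 78.3%. The mean number per Pol II summit was 0.199 within 1 kb, 1.29 within 5 kb, 2.44 within 10 kb and 4.41 within 20 kb, where the median was 3 and the highest count 42. Spread evenly over the chromosomes, the SPT5 list would hold 0.787 peaks in the 40 kb around a summit. Other Pol II peaks, counted the same way, numbered 0.290 within 1 kb and 1.98 within 20 kb. Other Pol II peaks numbered 0.832 within 5 kb and 1.26 within 10 kb. Against the whole SPT5 list, the longer of the 2, they were more numerous within 1 kb and less numerous from 5 kb outwards. With the SPT5 list shortened to the length of the Pol II list this order turned, and flanking SPT5 peaks were fewer than flanking Pol II peaks at every distance, at 0.0653 within 1 kb, 0.439 within 5 kb, 0.824 within 10 kb and 1.497 within 20 kb. An SPT5 peak that covers both Pol II peaks of a neighbouring pair is not counted as flanking. The mean number of flanking SPT5 peaks was 2.77 within 20 kb with a −log10 q of at least 5 in both lists, and 2.26 within 20 kb and 0.0129 within 1 kb with peaks within 500 bp merged.

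SPT5 peaks near but not at Pol II were lower and narrower than those at Pol II. Of all SPT5 peaks, 24473 (44.6%) overlapped no Pol II peak but lay within 20 kb of a Pol II summit, and 14564 (26.5%) had no Pol II summit within that distance. The former had medians of 2.98 for fold enrichment and 332 bp for width, against 7.19 and 854 bp for SPT5 peaks with Pol II. Density was counted over all flanking SPT5 peaks, also those at other Pol II peaks. The latter made up 33.4% at 0.5 to 1 kb and 27.0% at 15 to 20 kb. Density was highest at 0.5 to 1.5 kb, with 0.172 flanking summits per kb and side. It was 0.120 at 4 to 5 kb and 0.0941 at 15 to 20 kb, against a mean of 0.0197 per kb over the whole list. Below 0.5 kb it was 0.0264, since a peak so close mostly overlaps the Pol II peak and is then its partner. Low Pol II peaks had more SPT5 around them: the mean within 20 kb was 6.82 in the lowest decile of Pol II height and 3.41 in the highest.

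**Figure D3:**
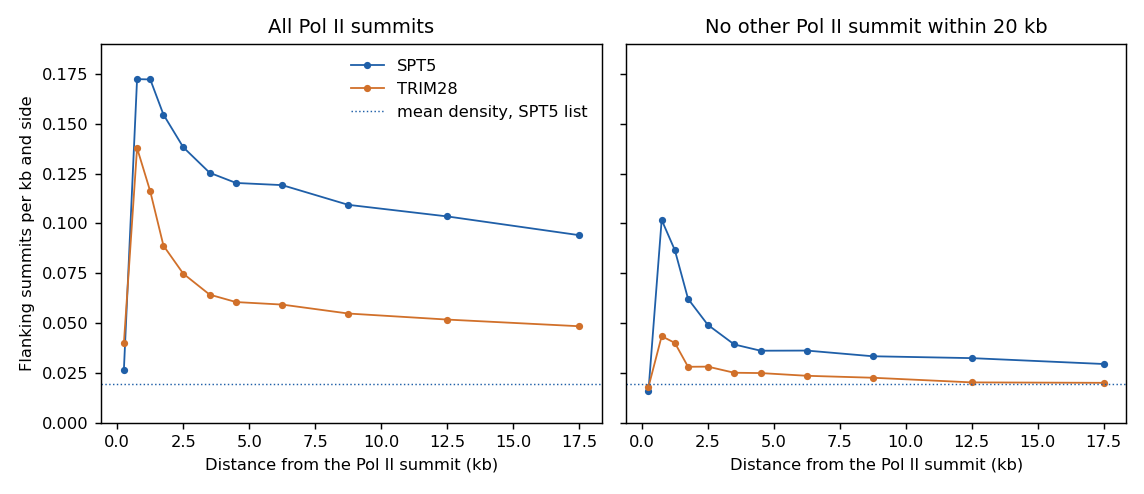
Flanking SPT5 and TRIM28 summits per kb and side against the distance from the Pol II summit in kb, for all Pol II summits (left) and for those with no other Pol II summit within 20 kb (right); the dotted line is the mean density of the SPT5 list. The SPT5 curve peaks at 0.172 in the left panel and at 0.102 in the right one, and falls with distance in both.

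Isolated Pol II summits had fewer flanking SPT5 peaks. No other Pol II summit lay within 20 kb of 6515 Pol II summits (33.7%). They had a mean of 1.48 flanking SPT5 peaks within 20 kb, and 47.4% of them had any, against 5.90 and 94.0% for the other 12821. Choosing summits without a Pol II neighbour also removes nearly all flanking SPT5 peaks that carry Pol II, so part of this gap is built in. Counting only flanking SPT5 peaks without Pol II, the means were 1.48 and 4.11. Their density went from 0.102 per kb and side at 0.5 to 1 kb to 0.0361 at 4 to 5 kb and 0.0295 at 15 to 20 kb. The isolated summits were the higher ones, with a median Pol II fold enrichment of 6.03 against 4.36, and their width ratio was 1.27 (1.25 to 1.28) against 2.01. SPT5 overlapped 93.8% of the isolated and 96.3% of the other Pol II peaks, both near the 95.5% of all.

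Flanking SPT5 peaks often lay all on 1 side of isolated Pol II summits. Over all Pol II summits 42.3% had flanking SPT5 peaks on both sides within 20 kb, and the low and high sides held means of 2.21 and 2.20 peaks. Among isolated summits 12.4% had them on both sides. Of the summits with any flanking SPT5 peak the shares were 54.0% (8183 of 15141) over all and 26.1% (805 of 3087) over isolated summits, and having fewer peaks per summit lowers such a share by itself. Summits with equal numbers of flanking peaks were therefore compared. Of the 218 isolated summits with 4 flanking SPT5 peaks, 120 had all 4 on the same side (55.0%, 48.4% to 61.5%), 55 of them on the low and the other 65 on the high side. With 6 flanking peaks it was 42 of 95 (44.2%, 34.6% to 54.2%). TRIM28, the co-repressor also profiled in the series, had all 4 flanking peaks on 1 side at 41 of 149 isolated summits (27.5%, 21.0% to 35.2%), and all 6 at 3 of 34 (8.82%). These are partly different summits, and the difference between SPT5 and TRIM28 was not tested. Around all Pol II summits with 4 flanking peaks the shares were 35.0% for SPT5, 25.0% for TRIM28 and 27.1% for other Pol II peaks.

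**Figure D4:**
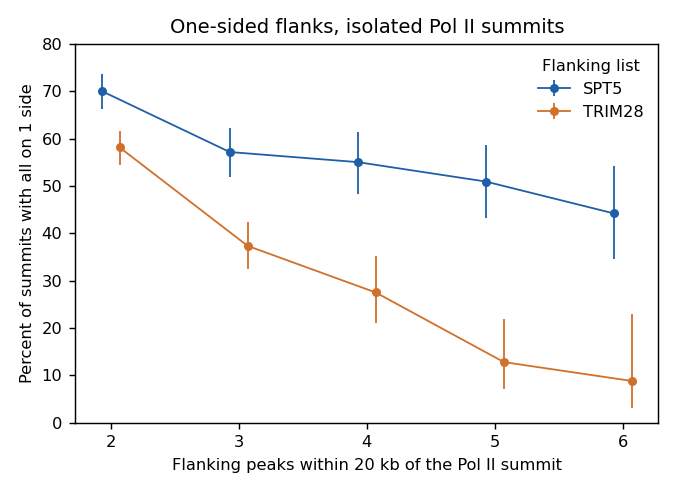
Percent of isolated Pol II summits with all flanking peaks on 1 side, by the number of flanking peaks within 20 kb, for SPT5 and TRIM28 with 95% Wilson intervals. SPT5 goes from 70.1% with 2 flanking peaks to 44.2% with 6, and TRIM28 from 58.2% to 8.82%.

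The side of the flanking peaks was nearly unrelated to the lean of the SPT5 peak at the summit. In simple pairs the longer SPT5 arm lay on the side with more flanking SPT5 peaks within 20 kb in 4735 of 9050 cases (52.3%, 51.3% to 53.3%), and within 5 kb in 50.9%. Within 1 kb it was 34.6% (32.7% to 36.4%), away from even. SPT5 peaks do not overlap each other, so a long arm takes room from a separate peak on its side. How much of the 34.6% this accounts for was not tested. For flanking TRIM28 peaks within 5 kb the share was 61.8% over all pairs and 53.2% over simple pairs, so that it lay nearer to even where SPT5 partners were not shared.

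The sites with most flanking peaks had them on both sides. At chromosome 20, 46151098 to 46151305, a Pol II peak of fold enrichment 2.46 had 42 flanking SPT5 peaks within 20 kb, 21 on each side, and 8 within 5 kb. At chromosome 20, 46210057 to 46210299, there were 40, with 20 on each side and 11 within 5 kb, and no other Pol II summit within 20 kb. At chromosome 17, 63025576 to 63025837, there were 38, and the Pol II peak itself had no SPT5 partner. The remaining 2 of the 5 lay at chromosome 20, 46235678 to 46235884, and chromosome 17, 63019836 to 63020308, with 37 each. All 5 Pol II peaks stood below the 30th percentile of their list, and these 5 fall into only 2 regions.

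Ranks of height agreed in part. The Spearman rho of fold enrichment between Pol II peaks and SPT5 partners was 0.60 over 18462 pairs, and 0.75 over the 13388 simple pairs. It is a description across sites that share their chromosome region and peak width, and SPT5 partners counted more than once enter the first value. Across deciles of Pol II height the median SPT5 fold enrichment went from 4.59 in the lowest to 12.3 in the highest, and its percentile in the whole SPT5 list from 73.3 to 96.5. Already at the weakest Pol II peaks the partner was thus above most SPT5 peaks. With pairs divided into quartile groups by each height, 46.9% fell into the same quartile group in both. In the top quartile group of Pol II 58.0% of partners were also in the top quartile group and 2.58% in the lowest. In the lowest quartile group of Pol II 53.4% were in the lowest quartile group and 9.53% in the top one.

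**Figure D5:**
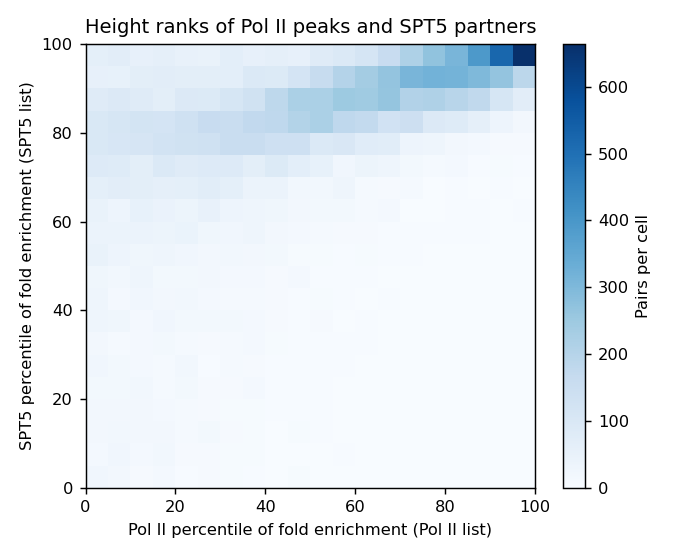
Percentile of fold enrichment of each SPT5 partner in the SPT5 list against the percentile of its Pol II peak in the Pol II list, as pairs per cell of 5 by 5 percentiles. Pairs lie mostly in the upper part of the SPT5 list and rise to the upper right corner; few lie at the lower right.

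Agreement differed with how the peaks met. The rho was 0.74 over the 11215 pairs with summits within 50 bp and 0.23 over the 3876 with summits more than 250 bp apart. It was 0.36 over the 5074 pairs that were not simple, and 93.1% of simple pairs had summits within 250 bp. Summit distance thus went with the kind of pair, and the part of each was not tested. Within deciles of Pol II width the rho ranged from 0.05 in the narrowest to 0.58 in the widest, and in simple pairs from 0.24 in the narrowest to 0.70 in the fourth decile. Ranking by the deposited −log10 q gave 0.68 over all pairs.

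The highest peaks of each list met partners that were high in the other list. The 5 highest Pol II peaks lay at chromosome 6, 111408288 to 111409098 (Pol II fold enrichment 27.2), chromosome 1, 144310765 to 144311994 (25.9), chromosome 16, 4421683 to 4422273 (24.7), chromosome 2, 121832369 to 121833141 (24.4), and chromosome 1, 182360558 to 182361323 (22.9). Their SPT5 partners had fold enrichments of 18.6, 15.6, 14.9, 15.5 and 10.3, with summits 8 to 78 bp away. All were above the 93rd percentile of the SPT5 list, where the median over all partners was the 86.0 percentile. The value of 10.3 was below the median of 12.3 for partners in the highest decile of Pol II height. SPT5 was the narrower at 4 of these 5, with ratios of 0.812 to 0.990, and 1.42 times as wide at the site on chromosome 16. At 4 of the 5 no flanking SPT5 peak lay within 20 kb, and at chromosome 1, 144310765, there were 2.

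The 5 highest SPT5 peaks had more around them. They lay at chromosome 11, 118963689 to 118966730 (SPT5 fold enrichment 28.1), chromosome 17, 4242909 to 4246294 (28.0), chromosome 17, 26903045 to 26905016 (25.2), chromosome 19, 42055155 to 42056393 (24.9), and chromosome 14, 106815755 to 106816872 (24.9). The highest Pol II peak under each had a fold enrichment of 15.9, 13.5, 11.3, 21.4 and 18.0, at the 94th percentile of the Pol II list or above, with summits 3 to 30 bp apart. The first 2 of these domains held 2 and 3 Pol II peaks, and between 2 and 8 flanking SPT5 peaks lay within 20 kb of the highest Pol II summit in each.

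Pairs with unlike ranks were of 2 kinds. The 119 pairs in the top quartile group of Pol II and the lowest of SPT5 had medians of 8.69 for Pol II fold enrichment and 4.04 for SPT5 fold enrichment, a width ratio of 0.806 and summits 39 bp apart. The heights follow from the choice of the group and are not compared between libraries. The SPT5 peak was usually the narrower one. Height and width were related among pairs, with a rho of 0.61 for Pol II and 0.47 for SPT5. Choosing by height therefore also tilts the width ratio, here and in the opposite group. In the 440 pairs in the lowest quartile group of Pol II and the top of SPT5, the median width ratio was 8.50, the summits were 950 bp apart, and 427 (97.0%) shared the SPT5 partner with another Pol II peak. These Pol II peaks thus lay mostly at a distance from the summit of an SPT5 domain that also covered another Pol II peak.

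The named sites were chosen as the 5 widest gaps in percentile each way. Their unlike heights follow from that choice, which also tilts their widths. At chromosome 2, 74815779 to 74816440, Pol II had a fold enrichment of 16.4 (99th percentile) and SPT5 2.84 (29th percentile), with summits 2 bp apart and a ratio of 0.683. At chromosome 13, 95892181 to 95892851, the values were 10.8 and 2.42, at chromosome 1, 157926603 to 157927223, they were 8.64 and 2.07, at chromosome 16, 70487556 to 70488204, they were 8.44 and 2.37, and at chromosome 22, 31689659 to 31690261, 8.67 and 2.55. SPT5 was the narrower peak at all 5. On the other side, the SPT5 peak at chromosome 19, 12899238 to 12905179, had a fold enrichment of 20.0 over a Pol II peak of 2.00 at its edge (12899538 to 12899764), 1 of 4 Pol II peaks in the domain. At chromosome 5, 149789183 to 149793332, the values were 17.4 and 1.91 with 3 Pol II peaks in the domain, and at chromosome 3, 39193055 to 39195465, they were 17.0 and 1.88 with 2. The other 2 were the domain on chromosome 17 that begins at 4242909 (28.0 and 2.07) and chromosome 12, 111043315 to 111044546 (15.1 and 1.99).

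The other targets of the series were then counted at Pol II peaks of like height but unlike SPT5. Of the 18462 paired Pol II peaks, O-GlcNAc, a sugar added to serines and threonines of nuclear proteins, was present at 42.2%, TRIM28 at 62.4% and OGA, the enzyme that removes the sugar, at 6.33%. Simple pairs were divided into quartile groups of Pol II height and each of these into quartile groups of SPT5 height. In the lowest Pol II quartile group the share with O-GlcNAc went from 6.45% (4.98% to 8.32%) with the lowest SPT5 to 31.9% (28.8% to 35.1%) with the highest. In the second quartile group it went from 11.7% to 59.0% and in the third from 40.5% to 73.1%. In these lower Pol II quartile groups the share was higher at each step up in SPT5. In the highest it was 50.4%, 66.1%, 68.1% and 66.3%, and the intervals of the SPT5 groups above the lowest overlapped. The median Pol II fold enrichment also rose across these SPT5 quartile groups, from 2.84 to 3.14 in the lowest and from 9.01 to 10.9 in the highest Pol II quartile group, and its part in the result was not tested. Peak widths were not matched between the groups either, and their part was not tested. The share with TRIM28 followed no single direction. From the lowest to the highest SPT5 it was 54.5%, 50.7%, 53.6% and 51.7% in the lowest Pol II quartile group, and 53.5%, 59.6%, 65.2% and 62.6% in the second. In the third it was 63.7%, 77.2%, 76.7% and 70.0%, and in the highest 71.6%, 82.8%, 81.1% and 76.1%, so that both middle SPT5 groups stood above the ends. In the highest Pol II quartile group the intervals of the second SPT5 group (80.1% to 85.2%) and the lowest (68.4% to 74.5%) did not overlap. For OGA the shares from the lowest to the highest SPT5 were 5.62%, 5.85%, 5.50% and 4.06% in the lowest Pol II quartile group. In the highest they were 6.45%, 10.2%, 8.73% and 7.17%. Intervals overlapped within each of these, though those of the lowest (4.98% to 8.32%) and second SPT5 group (8.29% to 12.4%) in the highest only just did.

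Side by side at the same 5459 Pol II peaks, those with SPT5, TRIM28 and O-GlcNAc, SPT5 had a median width ratio to Pol II of 1.41, TRIM28 of 0.602 and O-GlcNAc of 0.601. SPT5 passed both ends of 75.7% of these Pol II peaks, TRIM28 of 3.06% and O-GlcNAc of 2.77%. The median distance to the Pol II summit was 22 bp from SPT5, 139 bp from TRIM28 and 166 bp from O-GlcNAc. The rho of Pol II fold enrichment with that of SPT5 was 0.60, that with TRIM28 0.16 and that with O-GlcNAc -0.11. The backgrounds and depths of these lists may differ, and no test between them was possible with 1 library each.

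The relation was alike on all 22 chromosomes, with some spread in how far SPT5 reached. The share of Pol II peaks with SPT5 was lowest on chromosome 4 (92.6%) and highest on chromosome 16 (97.9%), and the rho of height ranged from 0.53 on chromosome 12 to 0.67 on chromosome 13. The median width ratio was 1.86 on chromosome 19 and 1.84 on chromosome 16, against 1.41 on chromosome 15. Chromosome 16 had the most flanking SPT5 peaks within 20 kb per Pol II summit, a mean of 6.05, chromosome 19 had 5.51 and chromosome 21 the fewest, 3.20. Shared partners made up 35.3% of pairs on chromosome 16 and 31.3% on chromosome 19 against 21.0% on chromosome 15. In simple pairs the median ratio was 1.35 on chromosome 16, 1.43 on chromosome 19 and 1.25 on chromosome 15. The median summit distance was 28 to 40 bp on every chromosome.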

How the data were processed

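BJAB chromatin was crosslinked and sonicated, with 10 µg of antibody per precipitation and 25 ng of DNA per library, per the labels' protocols. The submitters' processing notes name hg19 and the tools Trimmomatic 0.30, Bowtie2 2.1.0 and bcl2fastq 2.17. The program that called the peaks, its control and its threshold were not given in the sources used here. Each library has its own deposited peak list. IgG libraries were not analysed here. The fold enrichment deposited by the authors is a ratio to a background that is not stated. Significance is deposited as −log10 q, used for 1 alternative filter and ranking, and as a p column, used only to shorten the SPT5 list. The deposited score, which was 10 times the −log10 q within 1 unit, was not used. The deposited column of summit positions counts from the peak start. Positions are hg19, counted from 1.

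Peaks were paired, measured and counted with Python 3.11.15, numpy 2.4.6, pandas 2.3.3 and scipy 1.17.1, and drawn with matplotlib 3.10.9. Calculations were tested on simulated data, and overlaps were checked with bedtools 2.31.1. Shares carry Wilson intervals and medians order-statistic intervals. Each sample was assigned by its title, with 1 sample per target, so no test was made. Gene names and sequences were not used, since the gene tables at hand follow GRCh38 and the peaks hg19.

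Sites were named by rule: the 5 highest peaks of each list, the 5 largest and 3 smallest width ratios, the 5 Pol II summits with most flanking peaks, the 3 SPT5 peaks with most Pol II peaks, the 5 widest gaps in percentile each way, and the 5 most one-sided SPT5 partners over 5 kb, of which 4 are described beside arm ratios and the fifth as the domain with most Pol II peaks. The members, lists and rules were chosen with earlier results of these data known.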

Additional observations from a re-analysis of the deposited data

How the results depend on the processing

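The 9 main measures were recomputed under 8 other settings, giving 54 values, of which 25 stayed within the 95% interval of the value reported and 29 did not; no rank correlation changed sign. Values stayed within it under all sequences of the lists and with all overlapping SPT5 peaks joined. For the values that left it, the cause was not tested except where fewer peaks entered by construction. With a −log10 q of at least 5 in both lists, 39.2% of SPT5 peaks carried Pol II, the median width ratio was 1.55, the arm ratio 1.89 and the summit distance 27 bp, with a mean of 2.77 flanking SPT5 peaks within 20 kb, and 32.6% of Pol II summits had them on both sides. An overlap of 50% of the shorter peak left 95.05% of Pol II peaks with SPT5. With the SPT5 list shortened to the length of the Pol II list, 86.5% of Pol II peaks had SPT5, 72.5% of SPT5 peaks had Pol II, the width ratio was 1.66, SPT5 passed both ends in 76.9%, summits lay 30 bp apart, flanking peaks numbered 1.497, 21.8% of summits had them on both sides, and rho was 0.57. Simple pairs alone gave a width ratio of 1.34, both ends passed in 68.3%, an arm ratio of 1.73, a summit distance of 24 bp and a rho of 0.75. Ranking by −log10 q gave a rho of 0.68. With peaks within 500 bp merged, 37.4% of SPT5 peaks had Pol II, the width ratio was 1.53, both ends were passed in 72.4%, the arm ratio was 2.00, summits lay 27 bp apart, flanking peaks numbered 2.26, 32.4% of summits had them on both sides, and rho was 0.66. The share of isolated summits with 4 flanking SPT5 peaks all on 1 side was 48.9% at the stricter q, 51.6% after merging and 40.0% with the shortened list. The interval of the last was wide (21.9% to 61.3%) and included the 27.5% of the full TRIM28 list. Counts of flanking peaks thus depended most on list length and merging. No paired analysis was possible because each target had 1 library. Depth is unknown, so a missing peak cannot be told apart from a shallow library.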
